A study of Mus musculus with 6 samples.

Results

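The translation initiation and elongation factors of mouse germinal centre B cells were compared between Basp1 KO and WT cells. Members were all genes in the deposited files whose symbol begins with Eif1 to Eif6 or with Eef1 or Eef2, together with Pabpc1, Tpt1, Naca and Gnb2l1, which gave 71 of the 23420 genes listed. Of these, 12 belong to a list of transcripts known to start with a 5′ terminal oligopyrimidine (TOP) tract, and 59 do not. The 3 KO libraries came from mice with the genotype BASP1 fl/fl hCD20TamCre+/-, and the 3 WT libraries from mice with the genotype BASP1 +/+ hCD20TamCre+/-. All mice carried the tamoxifen-inducible, B cell-directed Cre, were immunized with NP-KLH, received 1 mg tamoxifen on day 5, day 7 and day 9, and gave splenic germinal centre B cells, isolated with beads and then by cell sorting, on day 10. The labels number the libraries 1 to 3 in each group but do not say that they came from separate animals. The spread between these libraries, on which p-values rest, may therefore be technical. The limma fit mostly pooled that spread over genes, with a median of 81.2 prior degrees of freedom against 2 from a gene's pairs. An SD over pairs printed beside a p-value is thus not the spread that gave the p-value. In sorted bulk cells, a change in the make-up of the cells and a change of RNA per cell cannot be told apart.

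Protein synthesis begins when eIF2 brings the initiator tRNA to the small ribosomal subunit, eIF3 and eIF1 hold the subunit open for scanning, and the cap-binding eIF4 factors recruit the messenger RNA. The eEF1 complex then delivers aminoacyl-tRNA and eEF2 moves the ribosome along. Many of these factors, like the ribosomal proteins, are encoded by TOP messages, whose translation is switched on by mTORC1 and held back by the cap-binding protein LARP1. Germinal centre B cells divide quickly and depend on mTORC1 during selection. A TOP tract is a C at the first transcribed base followed by a stretch of pyrimidines.

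The annotated starts of the TOP members are shown because the tract is the feature by which the list is defined. RefSeq (GRCm38.p6) gave a start for 7 of the 12 (Eef1g, Eef1d, Eif3e, Eif3h and Pabpc1 had no entry) and for 48 of the 59 others. Each line below gives 10 bases before the annotated start and 20 bases from it on, 5′ to 3′ on the transcript strand. Capitals mark any run of a C followed by at least 4 letters that are C or T. A run can go on past the edge of a window. Eef1a1, the most abundant member, is a known TOP message that the list leaves out, and is added for comparison.
Gnb2l1: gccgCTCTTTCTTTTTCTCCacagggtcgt
Eif3f: tctaggCTCTCTCTCTTTCTCggcaagatg
Eef2: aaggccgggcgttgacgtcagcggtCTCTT
Naca: tcgttCTCTTaaagaggaaacccggacgcc
Eif4b: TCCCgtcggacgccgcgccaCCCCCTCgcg
Eef1b2: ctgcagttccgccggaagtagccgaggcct
Tpt1: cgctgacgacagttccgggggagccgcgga
Eef1a1: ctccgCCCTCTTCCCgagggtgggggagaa

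These windows lie at chr11:48800350-48800379 for Gnb2l1, chr7:108934405-108934434 for Eif3f, chr10:81176621-81176650 for Eef2, chr10:128035336-128035365 for Naca, chr15:102073763-102073792 for Eif4b, chr1:63176821-63176850 for Eef1b2 and chr14:75845246-75845275 for Tpt1, all on the plus strand, and at chr9:78481705-78481734 on the minus strand for Eef1a1. The annotated first base was a C followed by at least 4 letters C or T in 2 of the 7 TOP members, Gnb2l1 and Eif3f, against 1 of the 48 others (Eif2s3x) and 2.49% of the 27025 genes in the table. In Gnb2l1 the run was 16 letters long and began 6 bases before the annotated start. In Eif3f it was 15 letters long and began 4 bases before it. The annotated first base of Eef1a1 was a T, inside a run of 10 letters that began 5 bases before that start. Its capitals therefore do not mark a tract that opens at the annotated start. A run of a C and at least 5 letters C or T that began within 20 bases of the start on the same strand was present in 4 of the 7, in 14 of the 48 others and in 32.5% of all genes in the table. These shares count the first listed start of each gene, and 3 further members outside the TOP list, Eif2ak4, Eif4e and Eef2k, have such a run at another listed start. The opposite strand was not searched. The annotated start need not be the one used in these cells, which the files do not measure.

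Each library listed log2 CPM, the counts of a gene scaled to a common library total, already put on a common distribution, so its read depth is unknown. For every gene the KO and WT values of the same replicate number had the same sum to within 0.001, so that a gene carries a mean and 3 paired differences, and its KO and WT values mirror each other. Whether the 2 groups overlap is therefore the same question as whether all 3 pairs went one way. Basp1 had 9.65, 7.27 and 9.39 CPM in KO libraries 1 to 3, against 44.8, 59.5 and 46.0 CPM in WT libraries 1 to 3. A floor value of -5.063 log2 CPM is shared by 8492 genes in all 6 libraries. Of the 9 germinal centre B cell markers none was at that floor value. Together they summed to between 9392 and 9711 CPM in KO libraries and between 10040 and 10390 CPM in WT libraries. All 9 had a negative mean log2 fold change (a median of -0.099). Of these, 5 were lower in KO in all 3 pairs (55.6%, against 12.5% of all genes). The 5 listed T cell markers summed to between 220 and 235 CPM in KO libraries and between 189 and 202 CPM in WT libraries, nearly all of it from Lck, while Cd3e was at the floor value in all 6. The myeloid list stayed under 15 CPM in every library, and the erythroid genes Hba-a1 and Hba-a2 were at the floor value. The 4 plasma cell markers summed to 1956 to 2142 CPM in KO libraries and 2093 to 2305 CPM in WT libraries. Most of this came from Igj, which averaged 1656 CPM in KO and 1850 CPM in WT libraries (geometric means). Xbp1 averaged 371 and 357 CPM. Prdm1 was higher in KO in all 3 pairs, at 1.92 to 2.75 CPM in KO and 0.930 to 1.33 CPM in WT libraries. So was Sdc1, at 0.885 to 1.01 CPM in KO and 0.615 to 0.703 CPM in WT libraries. The 4 naive B cell markers summed to 339, 404 and 317 CPM in KO libraries 1 to 3, against 351, 296 and 375 CPM in WT libraries 1 to 3, so that KO was higher in pair 2 alone. All 4 had a positive mean log2 fold change (a median of 0.42), and Cd38 was higher in KO in all 3 pairs, at 17.4 to 22.1 CPM in KO and 12.5 to 15.9 CPM in WT libraries. None of these germinal centre, plasma cell and naive B cell markers that were tested passed 5% FDR. The part of these marker differences in the members' values was not tested.

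No member passed the test between KO and WT. Of the 65 members that could be tested, 0 rose and 0 fell at 5% FDR (limma with the replicate number as a block), against 0.266% of the 10133 genes tested. At an unadjusted p under 0.05 there were 0 members higher and 6 lower, or 9.23%, against 4.16% of all genes higher and 4.66% lower (8.82% in either direction). Both counts depended on the setting, and each ran from 0 to 7 over the alternatives. Of the 65, 32 lay above 0 (49.2%, against 51.4% of all genes), and KO and WT libraries did not overlap for 15 of them, 9 higher and 6 lower (against 27.7% of all genes). The smallest adjusted p of a member was 0.237, for Eif5b. The differences were also small. In 54 of the 65 the fold change was under 1.1-fold in either direction (83.1%). This compares with 68.8% of all genes tested, many of which are less abundant and less precise. In 45 the 95% interval of the difference lay wholly within 1.2-fold, against 3690 of the 10133 genes tested. Of the 1097 genes tested at 200 CPM or more, 86.7% were under 1.1-fold and 904 had such an interval. The members together made up between 2.46% and 2.50% of all CPM in each of the 6 libraries.

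**Figure D1:**
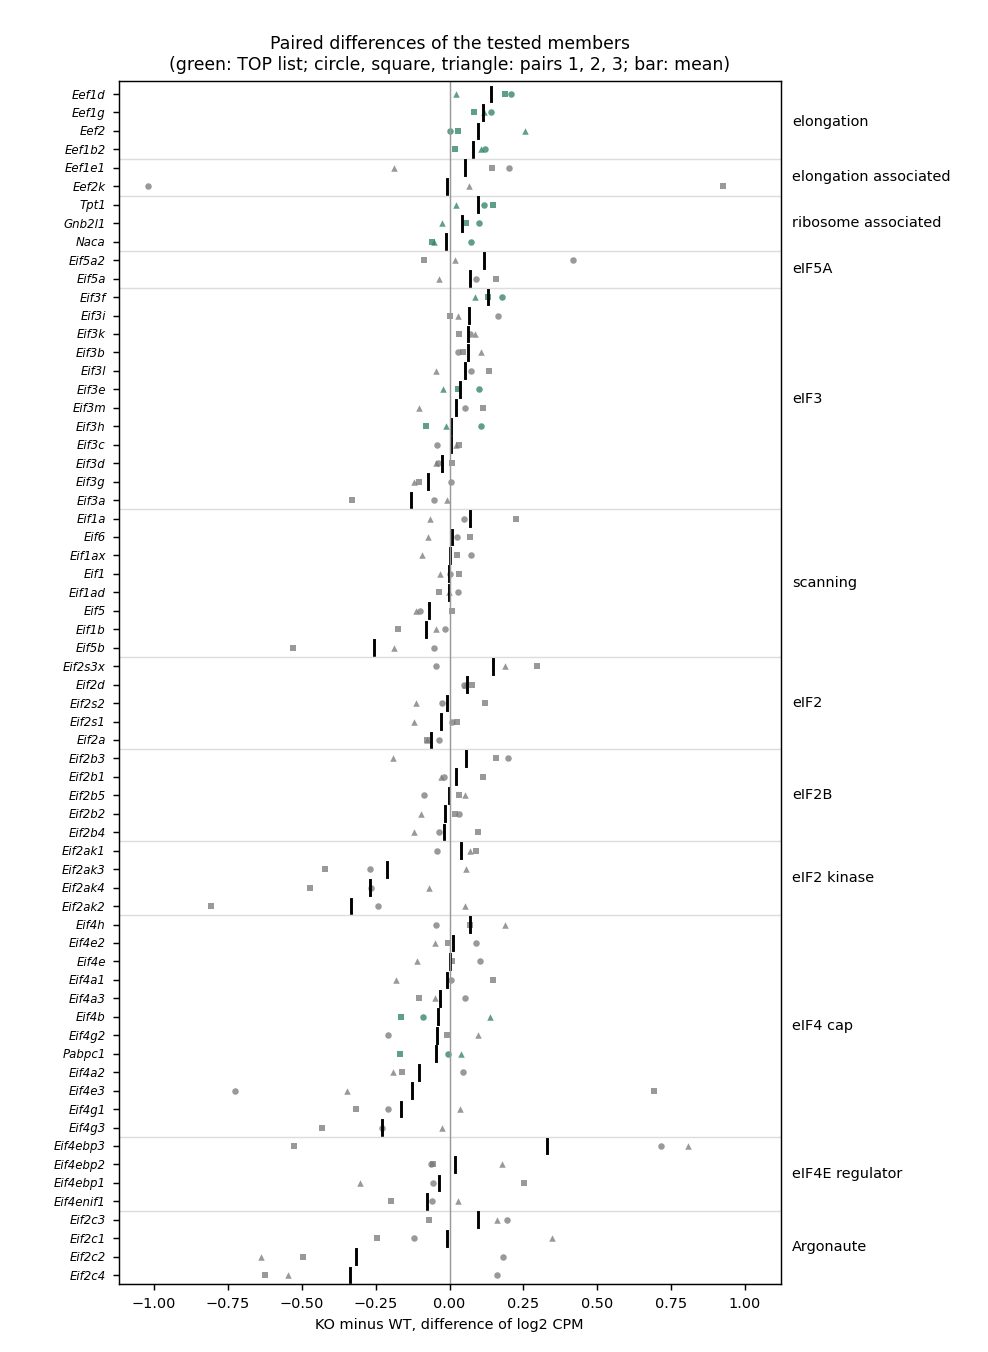
KO minus WT difference of log2 CPM (x axis) of the 65 tested members, grouped by role, with circles, squares and triangles for pairs 1, 2 and 3, a black bar for their mean, and green for the TOP list. The 4 elongation factors shown at the top have positive means, 3 of the 4 eIF2 kinases have negative ones, and Eif5b has the smallest adjusted p, 0.237.

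The 12 TOP members had a median log2 fold change of 0.062, with 9 of 12 above 0. The median was -0.007 in the 53 other tested members, of which 23 were above 0, and 0.004 over all genes tested. The other members are those outside the list, and were not shown to lack a TOP start. Among them Eif2s3x, with a log2 fold change of 0.15, had a C and pyrimidine run at its annotated start. The pair medians of the TOP members were 0.10, 0.029 and 0.031 in pairs 1, 2 and 3, and those of the other members were 0.00, 0.010 and -0.046. The TOP members thus had the higher median in each pair, by 0.1035, 0.019 and 0.0765 in pairs 1, 2 and 3 (SD 0.043) on the log2 scale. The medians of the mean log2 fold changes differed by 0.069. The SD between pairs of a single TOP member had a median of 0.070. KO libraries did not overlap WT libraries for 5 of the 12, all higher in KO (41.7%, against 15.2% of all genes higher and 12.5% lower), namely Eef1d, Eef1g, Eef1b2, Eif3f and Tpt1. Set against the 21 other tested members of at least 200 CPM, a choice made after seeing that all TOP members lie above that level, the TOP median was higher by 0.061.

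All 4 tested elongation factors belong to the TOP list and lay above 0, and Eef1d had the largest difference of that list. Eef1d, a subunit of the exchange factor that reloads eEF1A with GTP (chromosome 15, 75894205 to 75909556, GRCm38), had 264, 262 and 247 CPM in KO libraries 1 to 3, against 228, 230 and 244 CPM in WT libraries 1 to 3. All KO values lay above all WT values, with the narrowest gap in pair 3, and the log2 fold change was 0.14 ± 0.10 (SD, n = 3 pairs; limma adjusted p = 0.598). Eef1g, the scaffold subunit of the same complex (chromosome 19, 8967041 to 8978479), had 584, 572 and 578 CPM in KO libraries, against 529, 540 and 534 CPM in WT libraries. The 3 pairs were alike in size, at 0.14, 0.083 and 0.12, and the mean was 0.11 ± 0.03 (adjusted p = 0.665). Eef1b2, a catalytic exchange subunit, had 271, 261 and 270 CPM in KO libraries, against 249, 258 and 251 CPM in WT libraries. Again the groups did not overlap (0.081 ± 0.056, limma adjusted p = 0.823). Eef2, the translocase (chromosome 10, 81176631 to 81182498), had 1728, 1745 and 1887 CPM in KO libraries, against 1728, 1710 and 1581 CPM in WT libraries. Here pair 3 carried the difference and pair 1 had equal values (0.095 ± 0.14, adjusted p = 0.696). Eef1a1, which encodes the tRNA carrier eEF1A itself, was listed at 4532 CPM in all 6 libraries. A gene with 1 value in every library holds no information on a difference, so it was left out of the test, and its neuronal and muscle paralog Eef1a2 was at the floor value throughout.

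**Figure D2:**
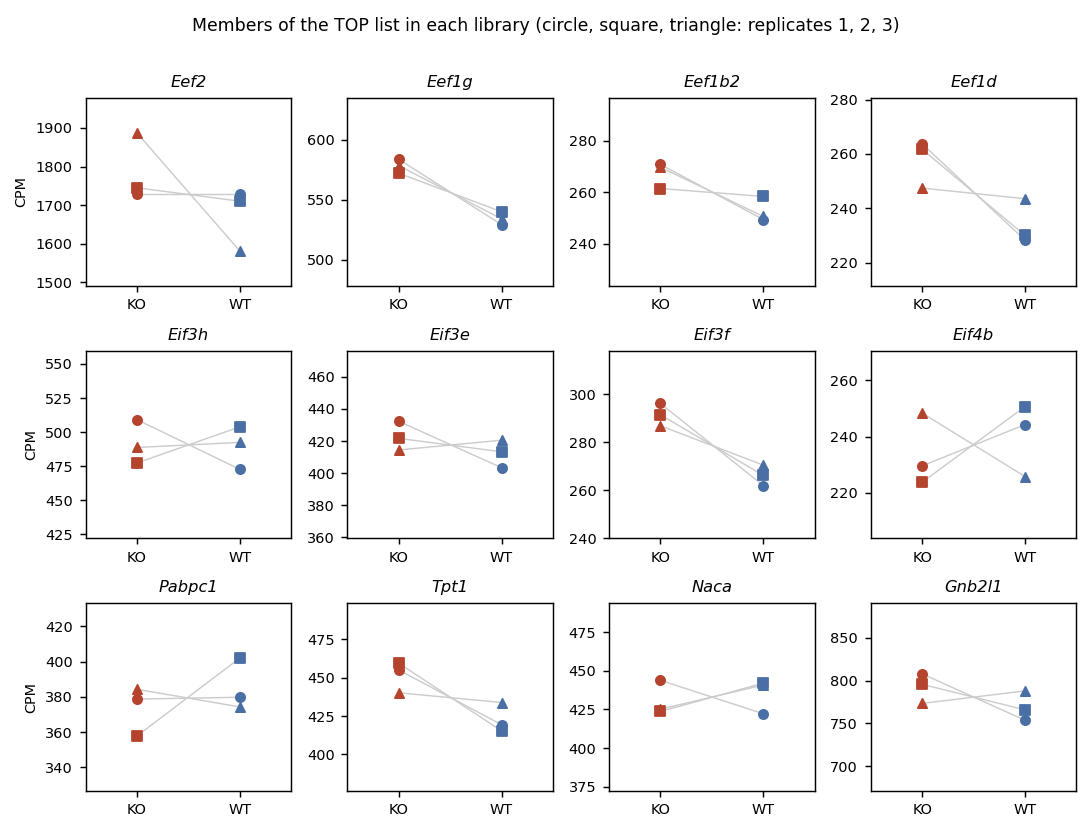
CPM (y axis, linear, not starting at 0 and covering the same relative range in each panel) of the 12 TOP members in KO and WT libraries, with grey lines joining libraries of the same replicate number. KO lies above WT in all pairs for Eef1g, Eef1b2, Eef1d, Eif3f and Tpt1, while the pairs cross for Eif3h, Eif3e, Eif4b, Pabpc1, Naca and Gnb2l1.

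The remaining TOP members did not share one direction. Tpt1, a growth-related protein bound to the eEF1 complex, had 455, 460 and 440 CPM in KO libraries, against 419, 415 and 434 CPM in WT libraries (0.095 ± 0.066, limma adjusted p = 0.766). Gnb2l1, now named Rack1, a scaffold on the small ribosomal subunit, had 808, 796 and 773 CPM in KO libraries, against 754, 766 and 788 CPM in WT libraries, and pair 3 went the other way (0.043 ± 0.064, adjusted p = 0.914). Naca, the alpha subunit of the complex that meets nascent chains, had 444, 424 and 425 CPM in KO libraries, against 422, 442 and 441 CPM in WT libraries. Its groups overlapped, as did those of the poly(A)-binding protein gene Pabpc1 (-0.045 ± 0.11, adjusted p = 0.918) and of Eif4b, which stimulates the eIF4A helicase (-0.038 ± 0.16, adjusted p = 0.943).

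Among the eIF3 subunits, the scaffold of the scanning complex, 9 of 12 tested lay above 0 (against 51.4% of all genes) and 3 below. The median log2 fold change was 0.029, and 0 passed 5% FDR. Eif3f, a TOP member (chromosome 7, 108934417 to 108942951), had 296, 291 and 287 CPM in KO libraries, against 262, 266 and 270 CPM in WT libraries. This was the largest difference of the complex, with no overlap, and its interval ran from -0.010 to 0.27 on the log2 scale around 0.13 ± 0.05 (limma adjusted p = 0.627). The other TOP subunits stayed close to 0, with Eif3e at 0.036 ± 0.061 and Eif3h at 0.006 ± 0.094. Eif3b, the subunit with the highest CPM, had 678, 682 and 697 CPM in KO libraries, against 664, 661 and 647 CPM in WT libraries (0.061 ± 0.041, adjusted p = 0.861). Eif3a, the largest subunit, stood at the other end with -0.13 ± 0.18 (adjusted p = 0.655), where pair 2 differed by -0.33 and the other pairs by -0.051 and -0.007.

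The factors of start-site selection and of the initiator tRNA were nearly level. Eif1, which guards start codon choice, had 771, 780 and 763 CPM in KO libraries, against 771, 763 and 780 CPM in WT libraries, and its 95% interval on the log2 scale ran from -0.12 to 0.12. Eif1a, a partner of Eif1 in scanning, had the highest fold change of the group at 0.069 ± 0.15 (limma adjusted p = 0.885). Of the 8 scanning and subunit-joining factors, Eif5b alone was below an unadjusted p of 0.05 (12.5%, against 4.66% of all genes lower). Eif5b, the GTPase that joins the ribosomal subunits (chromosome 1, 37998010 to 38055579), had 115, 97.6 and 110 CPM in KO libraries, against 119, 141 and 125 CPM in WT libraries. The groups did not overlap and pair 2 was widest (-0.26 ± 0.25, limma adjusted p = 0.237). The 5 tested eIF2 genes and the 5 subunits of its exchange factor eIF2B had medians of -0.008 and -0.001. An unadjusted p under 0.05 was found in 0 of 10, against 8.82% of all genes. Eif2s1, the eIF2 subunit that stress kinases phosphorylate, differed by -0.029 ± 0.079 (adjusted p = 0.950), and Eif2a, an alternative initiator tRNA carrier, by -0.063 ± 0.024 (adjusted p = 0.894). Among the eIF2B subunits the widest were Eif2b3 at 0.055 ± 0.21 and Eif2b4 at -0.020 ± 0.11, and Eif2b5, the catalytic one, was at -0.001 ± 0.073. Eif2s3x, the X-linked gamma subunit, had 47.3, 53.3 and 51.3 CPM in KO libraries, against 48.8, 43.4 and 45.0 CPM in WT libraries, overlapping through pair 1 (0.15 ± 0.17, adjusted p = 0.721). Its Y-linked copy Eif2s3y was at the floor value in all 6 libraries, as were the Y-linked genes Uty and Kdm5d, while Xist averaged 14.8 CPM in KO and 17.0 CPM in WT libraries (geometric means).

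Of the 4 eIF2 kinases, which slow initiation under stress, 3 lay lower in KO at an unadjusted p under 0.05 and 0 passed 5% FDR. Of all genes tested, 4.66% were lower at that p, and 6.55% of those over 4 kb, the length class of all 4 kinases. Without pair 2 none of the 3 had an unadjusted p under 0.05. Eif2ak3, which encodes the endoplasmic reticulum kinase PERK (chromosome 6, 70844515 to 70905245), had 170, 161 and 191 CPM in KO libraries, against 205, 216 and 183 CPM in WT libraries. Pairs 1 and 2 were lower in KO and pair 3 was not, for a mean of -0.21 ± 0.24 (limma adjusted p = 0.326), and without pair 3 the value was -0.35 and passed (adjusted p = 0.0261, the lowest of a range that reached 1 over the alternatives). Eif2ak4, which encodes the amino acid sensor GCN2 (chromosome 2, 118388618 to 118475234), had 36.0, 33.5 and 38.6 CPM in KO libraries, against 43.4, 46.6 and 40.5 CPM in WT libraries. It was the only kinase without overlap (-0.27 ± 0.20, adjusted p = 0.304). Eif2ak2, which encodes the double-stranded RNA sensor PKR (chromosome 17, 78852564 to 78882573), had 11.97, 9.84 and 13.3 CPM in KO libraries, against 14.2, 17.2 and 12.8 CPM in WT libraries, with a mean of -0.33 ± 0.44 (adjusted p = 0.457). Eif2ak1, the haem-regulated kinase, did not share this pattern and differed by 0.039 ± 0.070 (adjusted p = 0.945).

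In the cap-binding group 3 of 12 tested members lay above 0 (against 51.4% of all genes) and 9 below, and 0 passed 5% FDR. The 2 with an unadjusted p under 0.05, both lower in KO, were scaffolds (16.7%, against 4.66% of all genes lower). Eif4g1, the main scaffold that links cap, helicase and poly(A) tail (chromosome 16, 20668313 to 20692884), had 126, 121 and 137 CPM in KO libraries, against 146, 151 and 134 CPM in WT libraries (-0.16 ± 0.18, limma adjusted p = 0.544). Its paralog Eif4g3 (chromosome 4, 137993022 to 138208508) had 61.4, 57.3 and 65.9 CPM in KO libraries, against 72.1, 77.3 and 67.2 CPM in WT libraries, with no overlap (-0.23 ± 0.20, adjusted p = 0.331). In both, as in the 3 lower kinases, pair 2 was lowest and pair 3 nearest to 0. The third relative, Eif4g2, which serves cap-independent initiation, was far more abundant, at 1192 to 1324 CPM in KO and 1240 to 1378 CPM in WT libraries, and differed by -0.041 ± 0.15 (adjusted p = 0.913). Of the helicase and its partner, Eif4a1 differed by -0.010 ± 0.16 and Eif4h by 0.070 ± 0.12 (adjusted p = 0.989 and 0.832). The cap-binding protein gene Eif4e had 236 to 254 CPM in KO libraries and likewise 236 to 254 CPM in WT libraries. Its paralog Eif4e3 was far lower per kb, at 2.75 against 49.0 CPM per kb, and its pairs ran from -0.73 to 0.69 on the log2 scale. Its repressors Eif4ebp1, Eif4ebp2 and Eif4ebp3, which mTORC1 inactivates, and its transporter Eif4enif1 had adjusted p-values between 0.793 and 0.990, and Eif4ebp3, at under 4 CPM, was the widest at 0.33 ± 0.75.

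All 6 members with an unadjusted p under 0.05 (Eif5b, Eif2ak2, Eif2ak3, Eif2ak4, Eif4g1 and Eif4g3) had main transcripts longer than 4 kb in GENCODE M21. They were 6 of 18 tested members over 4 kb (33.3%) and 0 of 46 up to 4 kb. Of all genes tested in the same length classes, 6.55% and 3.88% were lower in KO at that p. The cut at 4 kb was not planned and lies just below the shortest of the 6, Eif2ak2 at 4.3 kb. The split between the classes therefore describes these 6 and tests nothing. Eif4g2, whose annotated transcripts differ widely in length, was left out of both classes and of the correlation. Over 64 members Spearman's rho between length and paired difference was -0.41, -0.32 and 0.11 in pairs 1, 2 and 3. Over 10073 genes it was -0.28, -0.079 and 0.27, in the same 3 pairs of libraries. With the trend over length and GC content removed from each pair, all 6 still had an unadjusted p under 0.05 and 0 passed 5% FDR. Pair 2 was the lowest for all 6, and pair 2 also had the widest gap in nuclear RNA. Its 5 markers summed to 355, 264 and 464 CPM in KO libraries 1 to 3, against 464, 624 and 355 CPM in WT libraries 1 to 3, with 2 of the 5 at the floor value. Naive B cell markers were also highest in KO in pair 2, with a median difference of 1.28 on the log2 scale. The part of either in the lower values was not tested. Without pair 2 none of the 6 had an unadjusted p under 0.05.

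**Figure D3:**
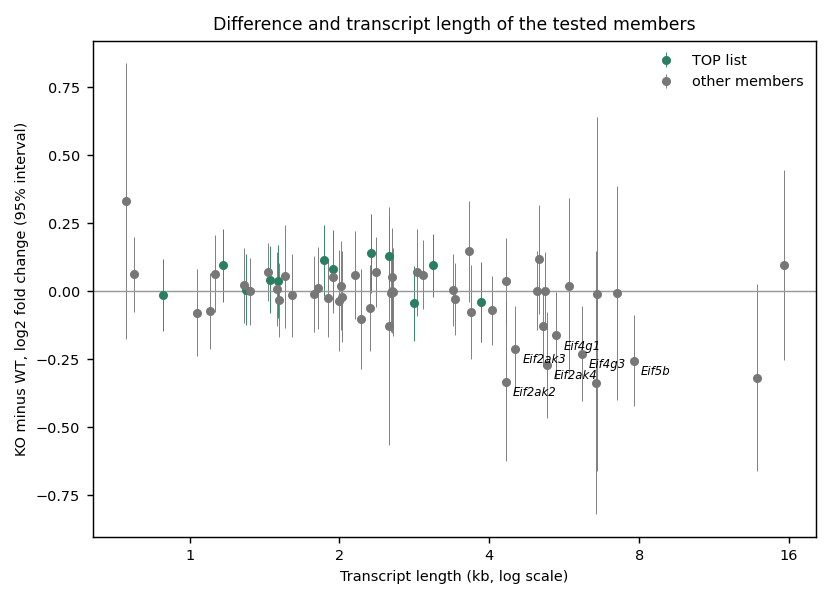
KO minus WT log2 fold change (y axis, with 95% intervals from limma) of 64 tested members against transcript length in kb (x axis, log scale), with the TOP list in green. The 6 named members lie between -0.16 and -0.33, all at lengths over 4 kb, while the TOP members lie between -0.045 and 0.14.

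Levels of different members were compared per kb of the main transcript. Eef1a1 was the highest with 2526 CPM per kb, followed by Eif5a, whose hypusinated protein helps ribosomes over stalling peptides, with 1764 CPM per kb. Eif1, Eef2 and Gnb2l1 came next with 583, 559 and 539 CPM per kb. Eif5a had 2616, 2676 and 2504 CPM in KO libraries, against 2458, 2402 and 2567 CPM in WT libraries, overlapping through pair 3 (0.070 ± 0.098, limma adjusted p = 0.794). Its paralog Eif5a2 stood at 7.67 CPM per kb. The 12 expressed eIF3 subunits, which work as one complex, ranged from 436 CPM per kb for Eif3k down to 52.5 CPM per kb for Eif3a. The eIF2B subunits ranged from 96.7 CPM per kb (Eif2b2) to 28.6 CPM per kb (Eif2b3). The kinase of eEF2, Eef2k, was the least abundant tested member, with 0.240 CPM per kb and pairs that differed by -1.02, 0.93 and 0.067. Eif4g2 is not ranked because its complete annotated transcripts differ widely in length.

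**Figure D4:**
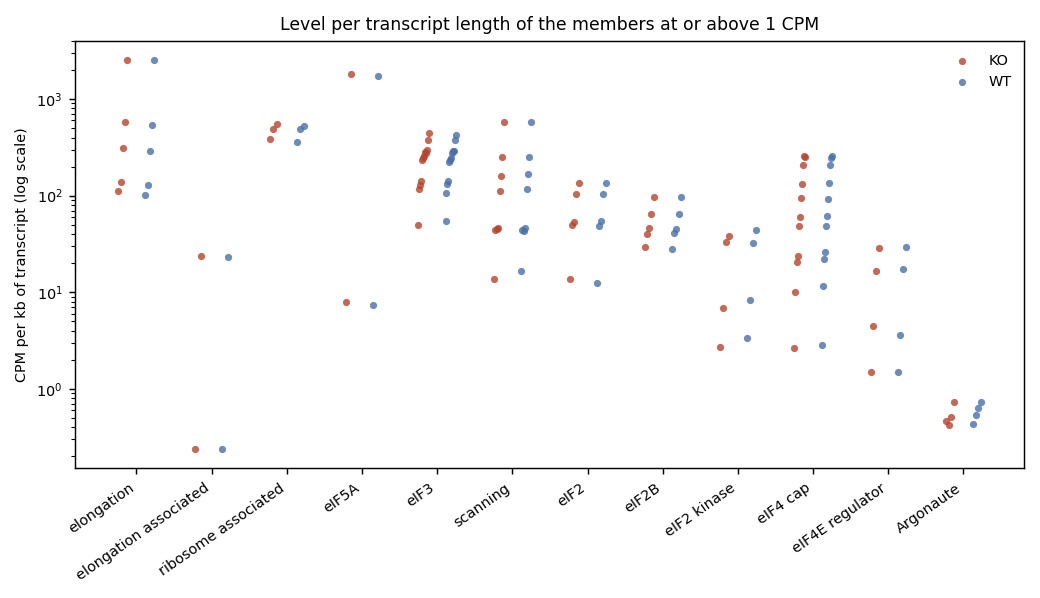
Geometric mean CPM per kb of transcript (y axis, log scale) of members at or above 1 CPM, by role, with KO points left of WT points in each role. Eef1a1 at 2526 and Eif5a at 1764 CPM per kb stand above the rest, and the Argonaute genes and Eef2k lie below 1.

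Not every row that fits the symbol rule encodes a translation factor. Eif2c1, Eif2c2, Eif2c3 and Eif2c4 are older names of the Argonaute genes Ago1 to Ago4, which carry small RNAs. They were the only group wholly below 1 CPM per kb, at 0.453 to 0.728. Eif2c2 (Ago2) had 8.37, 6.62 and 6.30 CPM in KO libraries, against 7.39, 9.34 and 9.82 CPM in WT libraries, with pair 1 going the other way (-0.32 ± 0.44, limma adjusted p = 0.627). Eif2c4 differed by -0.34 ± 0.43 and Eif2c3 by 0.096 ± 0.14 (adjusted p = 0.773 and 0.939). The medians above barely depend on them, since the 49 other tested members without Argonaute genes had a median of -0.003 (a split chosen after seeing the data). Eef1e1, named after eEF1 but known as part of the multi-tRNA synthetase complex, differed by 0.052 ± 0.21 (adjusted p = 0.934).

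The 6 members that were not tested were Eef1a1, with its single value, and 5 below 1 CPM. Of these 5, Eef1a2, Eif4e1b, Eif2s3y and Eif3j1 were at the floor value in all libraries, and Eif3j2 lay between 0.030 and 0.052 CPM. Eif3j1 and Eif3j2 share much of their sequence: 90.8% of the 50-base words of the Eif3j2 transcript also occur in Eif3j1, and 39.4% of those of the longer Eif3j1 transcript occur in Eif3j2. The words shared with other genes, pseudogenes included, were 65.5% for Eif4ebp3, 65.3% for Eif4a1, 65.0% for Naca, 64.3% for Eef1g, 59.2% for Eef1a1 and 42.0% for Tpt1. The sources used here do not give how reads that match several places were counted, so the levels of these genes, and the near-zero values of Eif3j1 and Eif3j2, are uncertain.

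Genes that control or complete the process were taken from fixed lists. Of 18 tested genes of mTORC1 and TOP control 0 passed 5% FDR, 9 were positive and 9 negative. Larp1, the TOP repressor, averaged 35.2 CPM in KO and 39.4 CPM in WT libraries (-0.17 ± 0.20, limma adjusted p = 0.695), and Larp4b and Tia1 had the smallest p of the list (-0.17 and 0.16, adjusted p = 0.527 and 0.622). Of 16 other initiation factors 0 passed, 4 were positive and 12 negative, led by the poly(A)-binding protein regulator Paip2b (-0.31) and the helicase Dhx9 (-0.25). Of 5 termination and rescue genes 0 passed, although Upf1, the helicase of nonsense-mediated decay, differed by -0.40 ± 0.38 (adjusted p = 0.149), through pairs 2 and 3. Without pair 1 it was -0.62 and passed (adjusted p = 0.00145, against up to 1 over the alternatives), and it passed with no filter on low values (0.0454). Hbs1l, a ribosome rescue GTPase, differed by 0.034 ± 0.22. Of 8 genes that modify eIF5A and eEF2 and of 10 genes of the integrated stress response, which the eIF2 kinases feed, 0 passed. Dph5 and Dph3, which help to make the diphthamide of eEF2, differed by -0.15 ± 0.12 and 0.12 ± 0.20 (adjusted p = 0.776 and 0.780). Among the stress response genes 3 were positive and 7 negative, with Atf4, its central activator, at -0.17 ± 0.08 (adjusted p = 0.595) and Atf3 at -0.60 ± 0.51 (adjusted p = 0.452).

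Transcripts with TOP starts outside the list differed among themselves. Fau, which encodes a ubiquitin-like protein fused to a ribosomal protein, differed by 0.21 ± 0.04 (limma adjusted p = 0.191; without the replicate block 0.0352). Vim differed by 0.13 ± 0.43, and Nap1l1, Hnrnpa1, Btf3 and Ipo7 lay between -0.077 and 0.008. The cytosolic ribosomal protein genes, picked by symbol, had a median of 0.15 over 76 tested. At 5% FDR 5 of the 76 rose, against 0.168% of all genes tested. Of the 12 TOP factors 0 rose, but a list of 12 is too short to set this count against 5 of 76. The pair medians of the ribosomal protein genes were 0.15, 0.13 and 0.17, and all 76 were above 0, against 9 of the 12 TOP factors. The difference between these sets was not tested.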

How the data were processed

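Log2 CPM values were deposited by the authors, 1 per gene and library. The submitters' processing notes name STAR 2.6.1a, build mm10, limma, Subread 2.0.1 with featureCounts, Trim Galore 0.6.5 and FastQC 0.11.7, with no order. Settings and the counting strand are not given in the sources used. Libraries share one distribution and carry no difference between replicate numbers, so depth is unknown. This pairing comes from the values: pair sums are equal for every gene. A floor value of -5.063 stands for 8492 genes in all libraries; some single values lie below it.

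Genotypes were tested with limma 3.58.1 (R 4.3.3; genotype and replicate number, variance trend, robust moderation, two-sided, Benjamini-Hochberg at 5% FDR) over 10133 genes with a geometric mean of at least 1 CPM and more than 1 value. The fit was also run on simulated data, in which genes varied independently of each other. Such data lack the trends over transcript length seen in these pairs, so that run does not show how well the fit works here. Fold changes are KO minus WT on the log2 scale, with the SD over 3 pairs. Lengths came from GENCODE M21 (GRCm38), matched for all 71 members. The members and lists were chosen with earlier results of these data known. Genes named were the TOP members, the 12 others with the smallest p, extremes of each role, paralogs, and the 2 smallest p of each pathway list (1 gene is not reported here); Larp1, the genes Nap1l1, Hnrnpa1, Vim, Btf3 and Ipo7, and members given for their level were added after values were seen. Alternatives are given in the closing section.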

Additional observations from a re-analysis of the deposited data

How the results depend on the processing

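The count of members past 5% FDR was 0 under every alternative except without replicate 3, where Eif2ak3 passed (range 0 to 1 over the 3 fits that leave out a pair). Over all genes the count of 27 became 95 with no filter on low values, 12 with non-robust moderation, 0 with no variance trend (where 0 members had an unadjusted p under 0.05), 4 with the length and GC trend removed within the replicate block, and 11 to 136 without a pair; the cause was not tested. With no replicate block it was 142 and the members' count stayed at 0; that fit counts degrees of freedom already used. Fau passed in it (adjusted p = 0.0352), and Upf1 passed with no filter (0.0454) and without pair 1 (0.00145). At an unadjusted limma p under 0.05 the main fit had 0 members higher and 6 lower. No replicate block gave 7 higher and 5 lower, and removing length and GC gave 2 and 6. Without pairs 1, 2 and 3 in turn, the counts were 1 and 5, 1 and 1, and 3 and 7. The TOP median ran from 0.038 to 0.066 and its lead over the other members from 0.050 to 0.083 without a pair, and that lead was 0.050 with Eef1a1 counted as TOP. With length and GC removed Eif3h was -0.0019 and Eef2k 0.0061. Leaving out a pair turned the sign of values near 0, with ranges of -0.057 to 0.010 for Naca, -0.086 to 0.017 for Pabpc1, -0.045 to 0.048 for Eif3h, -0.13 to 0.024 for Eif4b, -0.056 to 0.016 for Eif2s1, -0.027 to 0.041 for Eif2b5, -0.017 to 0.18 for Eif2b3, -0.078 to 0.030 for Eif2b4, -0.11 to 0.043 for Eif4g2, -0.033 to 0.22 for Eif5a2, -0.022 to 0.17 for Eef1e1, -0.48 to 0.50 for Eef2k, -0.017 to 0.016 for Eif1, -0.0085 to 0.14 for Eif1a, -0.54 to 0.17 for Eif4e3 and -0.089 to 0.12 for Hbs1l. Unknown depth limits what low members such as Eef2k and Eif4ebp3 can show.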
